A study of Mus musculus with 9 samples.

Results

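Cyclins and cyclin-dependent kinases (Cdks) were examined as one gene group in acRIP-seq libraries of mouse testis, in which RNA carrying N4-acetylcytidine (ac4C), an acetylated form of cytidine, is recovered with an anti-ac4C antibody and sequenced. The group was taken by gene name from the GENCODE annotation: every protein-coding gene named Ccn plus a letter and an optional number, or Cdk plus a number. This gave 44 genes, 25 cyclins and 19 Cdks, of 55401 genes (21208 of them protein-coding) in the count table. All 9 libraries were made from poly(A) RNA of WT testis, and the methods name ICR as the mouse strain but give no age for the testes used in acRIP-seq. The 3 input libraries hold the poly(A) RNA before precipitation with no antibody, the 3 IgG libraries hold RNA recovered with an isotype control immunoglobulin, and the 3 acRIP libraries hold RNA recovered with the anti-ac4C antibody. An in vitro transcribed β-globin RNA containing ac4C was mixed into the RNA before precipitation, and libraries were built by Smart-seq2, which primes cDNA at the poly(A) tail and amplifies it, from precipitated RNA too scarce to be quantified. The comparison of acRIP with both IgG and input asks which transcripts the antibody recovers beyond what the beads recover and beyond what the RNA pool contains.

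Cyclins are the regulatory subunits that switch on Cdks. A- and B-type cyclins with Cdk1 and Cdk2 drive DNA replication, mitosis and the meiotic divisions, and D- and E-type cyclins with Cdk4, Cdk6 and Cdk2 drive the passage from G1 into S phase, whereas a separate branch (cyclins C, H, K, L and T with Cdk7, Cdk8, Cdk9, Cdk12 and Cdk13) acts on RNA polymerase II and RNA processing. In testis, Ccna1 is the cyclin of male meiosis, required for entry into the first meiotic division, while Ccna2 is the cyclin A of dividing cells.

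Input libraries held between 22023925 and 31340090 counts, IgG libraries between 14647542 and 18786779, and acRIP libraries between 16025779 and 18639134. The cyclin and Cdk genes together held 42896 to 61979 counts per input library, 31505 to 40650 in IgG and 32963 to 37676 in acRIP. In acRIP, 22206 to 22402 genes had at least 1 count, compared with 26204 to 26874 in IgG and 28552 to 29642 in input. Spermatid markers summed to between 26126 and 34511 FPKM over the 9 libraries and 3 hepatocyte markers to at most 0.577 FPKM. The 6 spermatocyte markers summed to 267 to 280 FPKM in input, 230 to 244 in IgG and 179 to 194 in acRIP, although Sycp1 alone was higher in acRIP (48.3 to 51.6) than in input (34.6 to 37.5). The 5 Sertoli cell markers in the table summed to 220 to 229, 183 to 194 and 154 to 163 FPKM, nearly all of it Clu, while Gata4 went from at most 0.458 in input to at least 1.37 in acRIP and Rhox5 was at 0. Spermatogonia markers summed to 26.3 to 31.7, 36.9 to 46.2 and 33.1 to 38.8 FPKM, and blood and immune markers to 26.5 to 27.4, 41.4 to 49.6 and 31.9 to 35.1. Single markers of these lists went both ways. Uchl1 and Zbtb16 were higher in acRIP than in input, but Gfra1 (0.451 to 0.533 against 1.61 to 2.09), Kit and Stra8 were lower. Likewise Hba-a1 and Ptprc were higher, but Alas2 (0.759 to 0.935 against 7.46 to 8.81), Cd68 and Adgre1 were lower. The part of these markers in the results below was not tested. Precipitation followed RNA extraction, so marker differences between the groups do not measure numbers of cells. Within any bulk library, fewer cells of a type and less RNA per cell cannot be told apart. The labels do not say whether the 3 libraries of a group come from separate animals, so p-values measure the spread between these libraries, which may be technical. Every fold change is relative to the rest of its library, because the recovered amount of RNA was not measured.

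In input, the cyclin and Cdk transcripts were led by the meiotic and M-phase cyclins. Levels are given here as FPKM, counts per kilobase of merged exons after scaling to the total counts of the library. Merged exons of a gene can be much longer than its transcript, so the order of genes by FPKM depends on this length. Ccnb2, a B-type cyclin that activates Cdk1, was highest with 205.0, 198.1 and 195.6 FPKM, or 39.07% of the summed cyclin FPKM. Ccna1 followed with 115.1, 116.0 and 118.5 FPKM and took a further 22.82%. Ccnb1, the other main B-type cyclin of cell division, had 30.5 to 33.5 FPKM and Ccnk, the partner of Cdk12 and Cdk13, 27.8 to 29.2 FPKM. These top 4 genes did not overlap between one rank and the next. Ccna2 was at 2.31 to 2.54 FPKM, and Ccnb3, a B-type cyclin of early meiosis, had 0 counts in all 9 libraries, which allows up to 3 counts per library.

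The Cdks were more even. Cdk16, a kinase activated by Ccny, had the highest mean in input at 17.6 to 18.7 FPKM, with 13.58% of the summed Cdk FPKM. Cdk7 (15.7 to 17.7 FPKM), Cdk1 (15.4 to 16.1) and Cdk4 (14.4 to 15.5) came next. Cdk7 overlapped with Cdk16, and Cdk1 with Cdk7 and Cdk4. Merged exons span 4378 bases for Cdk16 and 3706 for Cdk7, while their transcripts with the longest coding sequence have 3120 and 1988 bases. Lowest were Cdk13 at 0.474 to 0.630 FPKM, Cdk6 at 0.544 to 0.623 and Cdk15 at 0.377 to 0.779, whose ranges overlapped. Among cyclins that were counted, Ccnj was lowest at 0.208 to 0.234 FPKM and Ccnd2 next at 0.387 to 0.493.

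**Figure D1:**
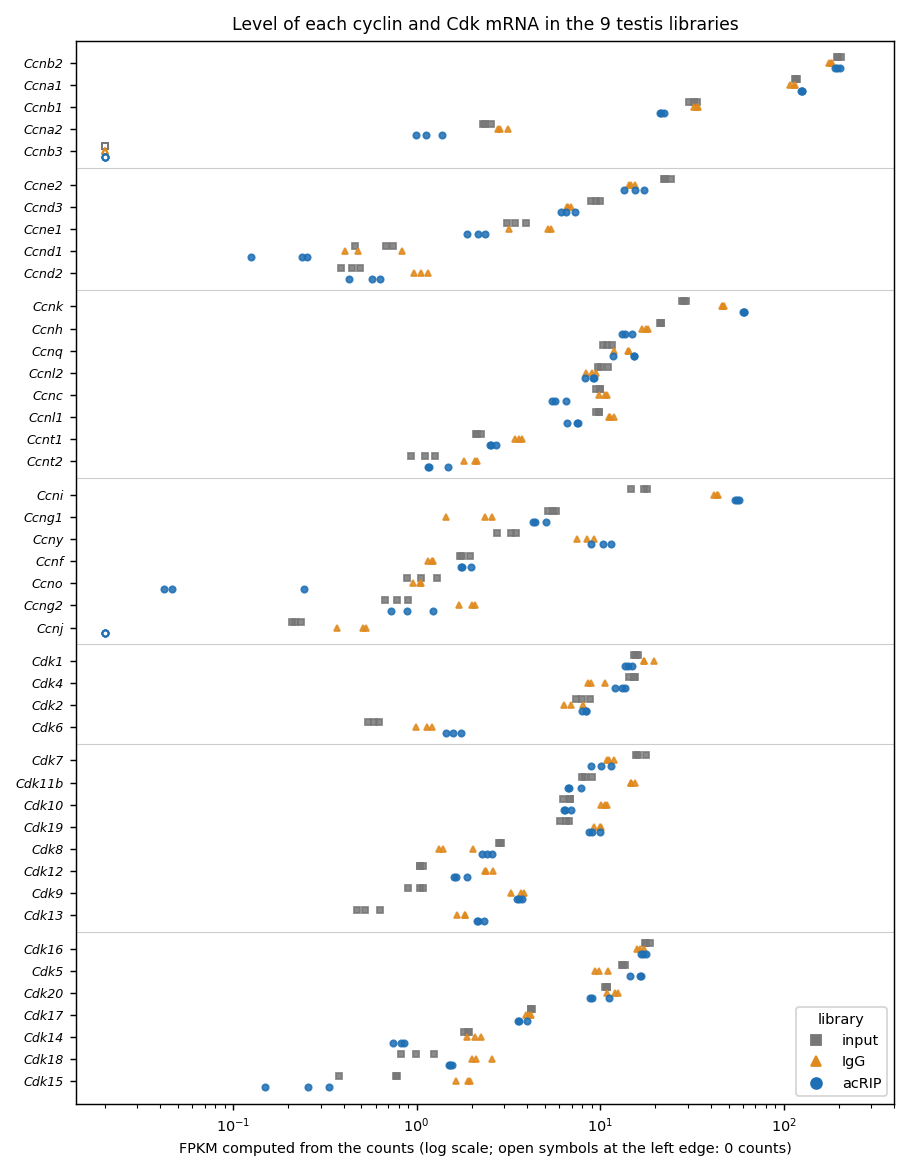
Level of each of the 44 genes in FPKM on a log axis, 1 symbol per library (squares input, triangles IgG, circles acRIP), with genes grouped by role and ordered by their input mean; open symbols at the left edge mark 0 counts. Ccnb2 and Ccna1 lie above 100 FPKM in every library, Ccnb3 has 0 counts everywhere, and Ccnj has 0 counts in the acRIP libraries only.

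Ccnb1 has a processed pseudogene, Ccnb1-ps, that is nearly its copy, and this bears on how its reads could be assigned. Ccnb1 lies at chr13:100778650-100786570 on the minus strand of mm10, and Ccnb1-ps at chr7:42105899-42107185, also on the minus strand. Over 1287 aligned bases the transcripts differ at 10 and are 99.2% identical, and the longest stretch they share without a difference is 278 bases. A 60-base stretch of the coding sequence, bases 415 to 474 from the first coding base, holds 2 of these differences and is shown to illustrate how few bases separate them, with differing bases in capitals.

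Ccnb1: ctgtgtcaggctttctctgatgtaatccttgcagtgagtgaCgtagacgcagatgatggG
Ccnb1-ps: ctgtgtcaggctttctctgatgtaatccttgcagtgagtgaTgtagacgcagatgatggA

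Ccnb1-ps took 21.7%, 25.2% and 24.1% of the counts of the 2 loci in input, 18.7%, 22.1% and 20.9% in IgG and 18.9%, 18.2% and 20.8% in acRIP. Reads that fit both loci equally were not counted, because the counting used uniquely mapped reads. Ccnd3 and its pseudogene were 96.5% identical with a shared stretch of 89 bases, and Ccnb2 and its pseudogene 87.1% with 28 bases. The pseudogenes of Ccnb2 and Ccnd3 took at most 2.29% and 2.71% of the counts of their pairs. Between paralogous genes of the group, shared stretches were short, at most 26 bases (Ccnl1 and Ccnl2).

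Of the 44 genes, 43 passed the filter on low counts and Ccnb3 did not. A gene was called when the edgeR adjusted p was under 0.05 and the fold change over 2, and 22510 genes were tested in all. None of the 43 was higher in acRIP than in both IgG and input, where 7.87% of all tested genes were. The count was also 0 with DESeq2 and with an unadjusted p under 0.05. Against IgG alone, 1 gene (Ccng1) was higher in acRIP, or 2.33% of the 43 against 11.5% of all tested genes, and 8 were lower (18.6% against 20.9%). Against input alone, 6 were higher (14% against 17.7%) and 5 lower (11.6% against 22.8%). Ccnj, Ccno, Ccnd1, Cdk14 and Cdk15 were lower in acRIP than in both other groups, 11.6% of the 43, where 17% of all tested genes were. The 2 comparisons share the acRIP libraries, so they are not independent of each other.

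Differences smaller than 2-fold were also measured precisely for many of these genes. At an adjusted p under 0.05 and any fold, acRIP was above IgG for 13 genes (26.4% of all tested genes) and below for 21 (37.7%), and it was above input for 13 (32%) and below for 14 (40.3%). In this sense 7 genes were above both IgG and input (Ccna1, Ccni, Ccnk, Ccny, Cdk5, Cdk6 and Cdk13), against 18.2% of all tested genes, and 11 were below both, against 29%. The median log2 fold change of the 43 was -0.10 against IgG and -0.06 against input, beside -0.09 and -0.10 over all tested genes. The acRIP and IgG libraries did not overlap in CPM (counts scaled to the library's TMM-adjusted total) for 33 of the 43 genes, where 65.6% of all tested genes did not overlap, and the acRIP and input libraries for 30, where the share was 75%.

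**Figure D2:**
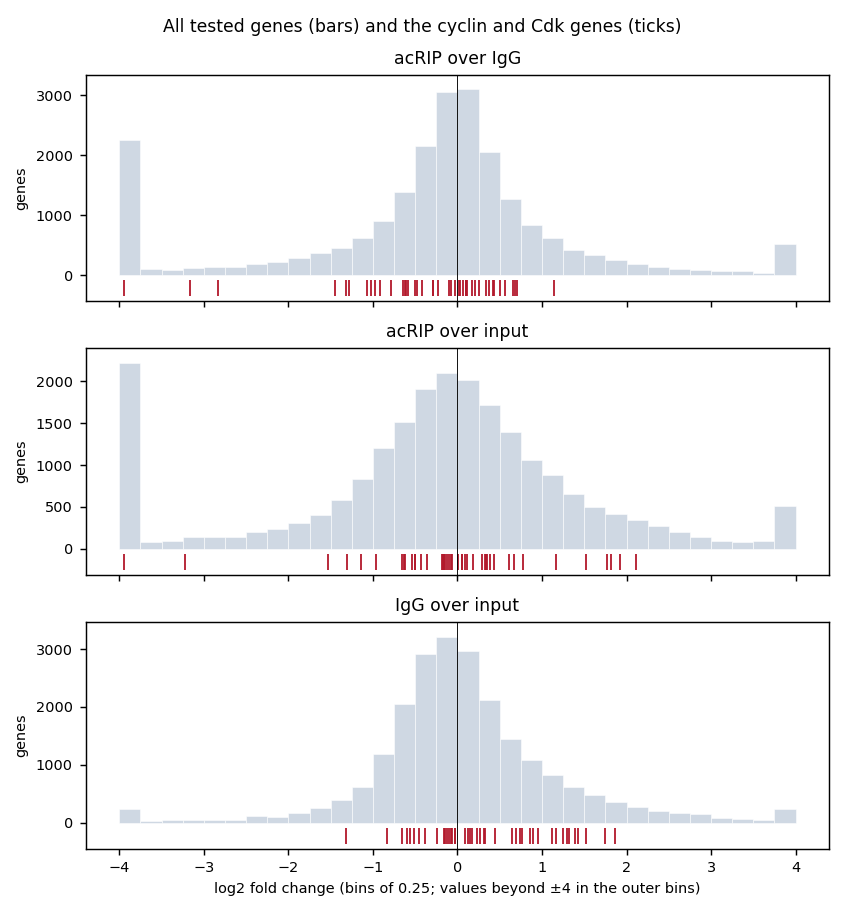
Number of tested genes per bin of log2 fold change (grey bars, 22510 genes, bins of 0.25 with values beyond 4 in the outer bins) and the 43 tested cyclin and Cdk genes (red ticks) for acRIP over IgG, acRIP over input and IgG over input. The ticks spread over the body of each distribution, with a single tick in the lowest bin of the acRIP panels (Ccnj, whose fitted value is no bound because its acRIP counts are 0) and more ticks to the right of 0 than to the left for IgG over input.

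Of the A- and B-type cyclins, Ccna1 and Ccnb2 differed little between acRIP and the other groups, while Ccnb1 and Ccna2 were measured lower in acRIP. Ccna1 had 207, 208 and 212 CPM in input, 209, 198 and 208 in IgG and 235, 239 and 235 in acRIP. The acRIP values lay above all others, yet the difference was small, 0.20 ± 0.04 (log2 fold change ± SE) against IgG with an edgeR adjusted p of 8.7e-05 and 0.18 ± 0.04 against input. Ccnb2 behaved alike in size, at 0.17 ± 0.04 against IgG and 0.05 ± 0.04 against input, the latter not passing the test (adjusted p = 0.28). Ccnb1 was measured below both groups by less than 2-fold, with 91.5, 93.7 and 95.6 CPM in acRIP, 142, 137 and 144 in IgG and 134, 125 and 137 in input. The measured difference was -0.59 ± 0.05 against IgG (adjusted p = 6.3e-12) and -0.50 ± 0.05 against input, and -0.61 and -0.58 when the counts of its pseudogene were added.

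Ccna2, the cyclin A of dividing cells, was lower in acRIP than in IgG and did not follow Ccna1. Its values were 9.44, 10.1 and 9.17 CPM in input, 11.6, 12.8 and 11.3 in IgG and 5.79, 4.80 and 4.14 in acRIP. All acRIP values lay below all other values. The log2 fold change was -1.28 ± 0.18 against IgG (adjusted p = 1.3e-07) and -0.96 ± 0.18 against input, which is under the 2-fold limit but passed it with upper quartile scaling (-1.01) or without acRIP replicate 1 (-1.08). Of its exon bases, 12.5% overlap Exosc9 on the opposite strand, and use of strand in the counting is not stated.

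Among the 5 D- and E-type cyclins, which act in G1, 2 were called lower in acRIP than in IgG, where 20.9% of all tested genes were. Ccnd1, which pairs with Cdk4 and Cdk6 (chr7:144929931-144939925, minus strand), had 68, 77 and 71 counts in input, 28, 74 and 42 in IgG and 18, 11 and 20 in acRIP. In CPM this was 2.13 to 3.41, 1.90 to 3.92 and 0.61 to 1.22, so that the acRIP libraries lay below the others while IgG and input overlapped. The log2 fold change was -1.45 ± 0.39 against IgG (adjusted p = 0.0016) and -1.53 ± 0.38 against input (adjusted p = 0.00060). LTO1 on the opposite strand overlaps 23.4% of the Ccnd1 exon bases and had a median of 465 counts in input, so part of these counts may belong to it.

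Ccne1, an activator of Cdk2 at the start of S phase, was called lower in acRIP than in IgG only. It had 6.44, 5.20 and 5.85 CPM in acRIP, 8.43, 14.3 and 13.9 in IgG and 8.07, 10.2 and 8.86 in input. Its log2 fold change of -1.07 ± 0.19 against IgG (adjusted p = 8.4e-06) fell under the 2-fold limit without IgG replicate 2 (-0.945), IgG replicate 3 (-0.976) or acRIP replicate 2 (-0.992). Against input it was -0.63 ± 0.19 (edgeR adjusted p = 0.0035), under the 2-fold limit, and the acRIP and input libraries did not overlap. Ccne2, the other E-type cyclin, gave 0.10 ± 0.08 against IgG (edgeR adjusted p = 0.25) and -0.50 ± 0.07 against input. It was the highest G1 cyclin by FPKM in input, at 22.2 to 24.2. By CPM in input it overlapped with Ccnd3 (75.7 to 82.4 and 76.2 to 85.4), whose merged exons are longer (8775 against 3495 bases). Of the Ccne2 exon bases, 17.4% overlap Ints8 on the opposite strand. Ccnd2 gave -0.91 ± 0.21 against IgG and 0.39 ± 0.21 against input, and passed the 2-fold limit against IgG without acRIP replicate 1 (-1.02). Ccnd3 gave 0.02 ± 0.07 and -0.43 ± 0.07.

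**Figure D3:**
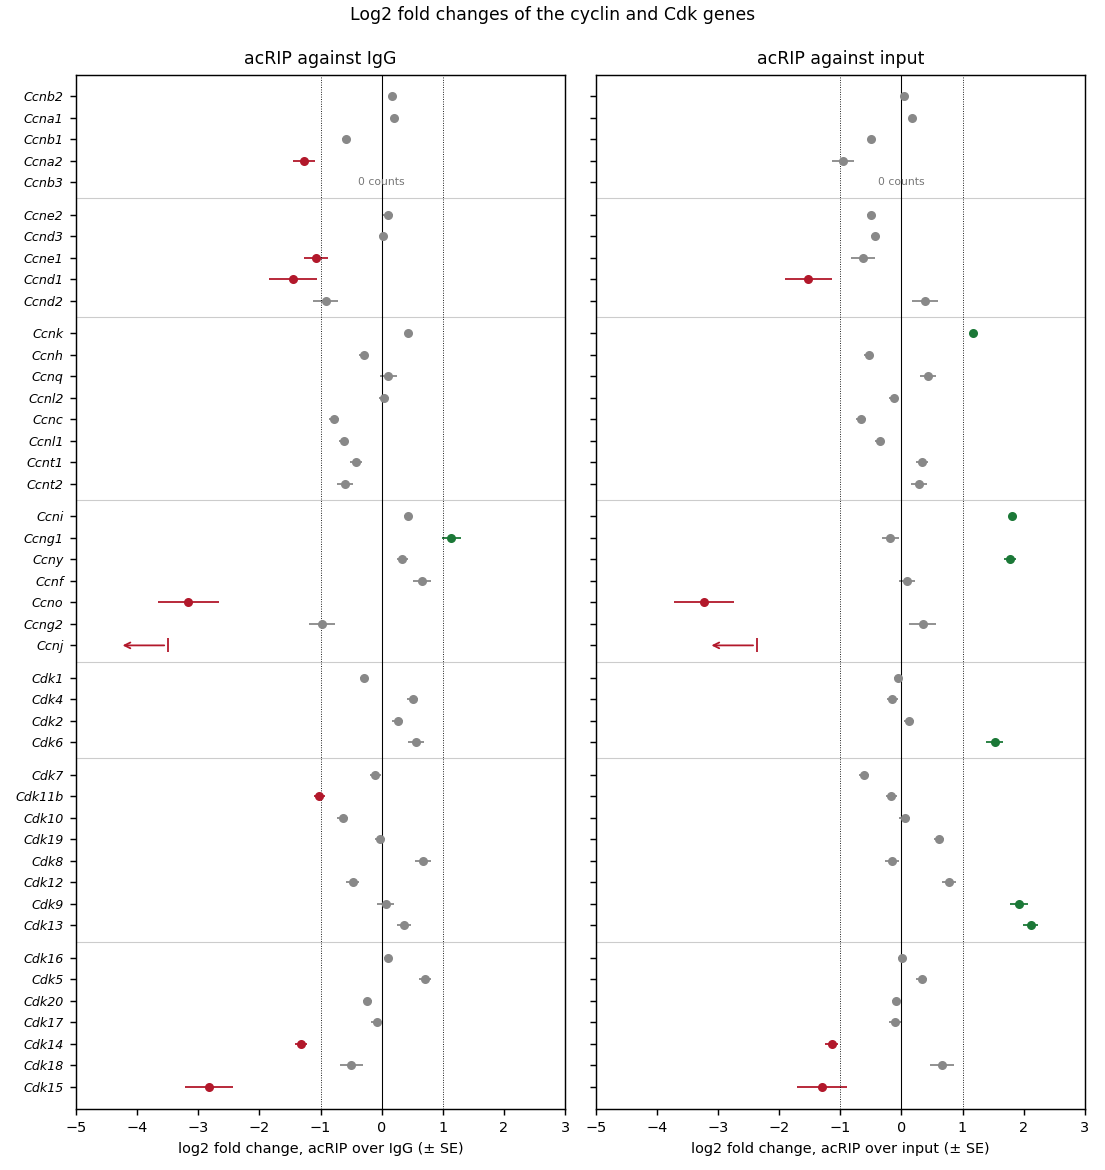
Log2 fold change with its SE for acRIP over IgG (left) and acRIP over input (right) for each gene, grouped by role; green marks genes called higher, red genes called lower and grey the rest, and dotted lines mark a 2-fold change. For Ccnj the bar and arrow give the bound computed against 3 counts per library, and red in both panels is found for Ccnd1, Ccno, Ccnj, Cdk14 and Cdk15.

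The cyclins without a classical cell-cycle role held the widest spread. Ccnj (chr19:40831279-40848572, plus strand), a poorly studied cyclin best known from fly oogenesis, had 32, 20 and 21 counts in input, 34, 42 and 30 in IgG and 0 in each acRIP library. It was the one group member with counts in every input and IgG library and none in acRIP. The share of all tested genes with this pattern was not computed, so it is not shown to be particular to Ccnj. Of the 22510 tested genes, 2255 had a fitted log2 fold change of acRIP over IgG below -3.75. Against a floor of 3 counts per library, it was at least 11.3-fold lower than in IgG (edgeR adjusted p = 3.6e-08) and at least 5.2-fold lower than in input (adjusted p = 1.3e-06). Should the counting have taken both mates, the floor is 6 counts and the bounds are 5.66-fold and 2.58-fold. Bounds and floors cover counting error only. Between IgG and input, Ccnj differed by 1.12 ± 0.50, which did not pass the test (adjusted p = 0.056) but did so without any single acRIP library or with halved counts.

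Ccno (chr13:112987802-112990777, plus strand), a cyclin required for the formation of multiciliated cells, had 104, 50 and 60 counts in input, 36, 50 and 50 in IgG and 10, 2 and 2 in acRIP. The acRIP libraries were at 0.64, 0.11 and 0.12 CPM, all below the lowest other library at 2.21 CPM. Its log2 fold change was -3.17 ± 0.50 against IgG (adjusted p = 1.0e-06) and -3.23 ± 0.49 against input (adjusted p = 3.3e-07), and leaving out 1 library moved these between -4.40 and -2.76 and between -4.46 and -2.81. The lowest of those values were reached without acRIP replicate 1, which held the 10 counts.

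Ccng1, a target of p53 (chr11:40748552-40755311, minus strand), was the one gene of the group that was called higher in acRIP than in IgG. It had 19.0, 19.6 and 17.8 CPM in input, 5.03, 9.01 and 8.28 in IgG and 15.6, 16.1 and 18.1 in acRIP. The acRIP and input libraries overlapped, and the IgG libraries lay apart below both. The log2 fold change was 1.14 ± 0.16 against IgG (adjusted p = 1.1e-07), -0.18 ± 0.14 against input (adjusted p = 0.26) and -1.32 ± 0.15 for IgG over input (adjusted p = 2.1e-09). Without IgG replicate 1, the library with the lowest value, the change against IgG was 0.935 and no longer over 2-fold. Ccng2, its paralog, ran the other way, with 4.19, 3.59 and 4.78 CPM in input, 11.4, 9.22 and 10.9 in IgG and 5.02, 4.13 and 6.82 in acRIP. It was higher in IgG than in input (1.32 ± 0.21, adjusted p = 9.8e-07), and its -0.98 ± 0.21 against IgG in acRIP was just inside the 2-fold limit, which it passed without IgG replicate 2 (-1.06) or acRIP replicate 3 (-1.19).

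Ccni and Ccny were higher in acRIP than in input and, by less than 2-fold, above IgG. Ccni, a cyclin first noted in postmitotic cells, had 58.1, 56.1 and 47.4 CPM in input, 144, 137 and 143 in IgG and 190, 187 and 192 in acRIP. The 3 groups were apart from each other in that order. Its log2 fold change was 1.81 ± 0.06 against input (adjusted p = 4.0e-26) and 0.43 ± 0.06 against IgG. Ccny, the membrane-bound cyclin that activates Cdk14 and Cdk16, had 20.8, 19.4 and 16.2 CPM in input, 45.3, 51.2 and 56.0 in IgG and 65.3, 56.4 and 71.7 in acRIP, with changes of 1.77 ± 0.10 against input (adjusted p = 8.1e-19) and 0.34 ± 0.09 against IgG. Ccnf, the substrate-binding subunit of an SCF ubiquitin ligase, gave 0.66 ± 0.14 against IgG and 0.09 ± 0.14 against input.

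Cyclins of transcription and RNA processing gave no call against IgG among their 8 genes, where 11.5% of all tested genes were higher and 20.9% lower. Ccnk was higher in acRIP than in input, with 86.9, 82.5 and 84.2 CPM in input, 140, 140 and 143 in IgG and 189, 190 and 189 in acRIP, changes of 1.16 ± 0.05 against input (adjusted p = 1.5e-22) and 0.42 ± 0.05 against IgG. Like Ccni, it stood in the order input, IgG, acRIP without overlap. Ccnc, a Mediator cyclin that pairs with Cdk8 and Cdk19, was measured at -0.78 ± 0.08 against IgG and -0.66 ± 0.08 against input. Ccnl1, a cyclin linked to splicing, gave -0.62 ± 0.07 and -0.36 ± 0.07, Ccnh, a subunit of the Cdk-activating kinase, -0.29 ± 0.07 and -0.54 ± 0.07, and Ccnl2 0.04 ± 0.08 and -0.13 ± 0.08. Ccnt1 and Ccnt2, the partners of Cdk9 in P-TEFb, had acRIP means between those of input and IgG, at -0.42 ± 0.10 and -0.60 ± 0.13 against IgG and 0.34 ± 0.10 and 0.29 ± 0.13 against input. Ccnq, which pairs with Cdk10, gave 0.11 ± 0.13 and 0.43 ± 0.13.

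**Figure D4:**
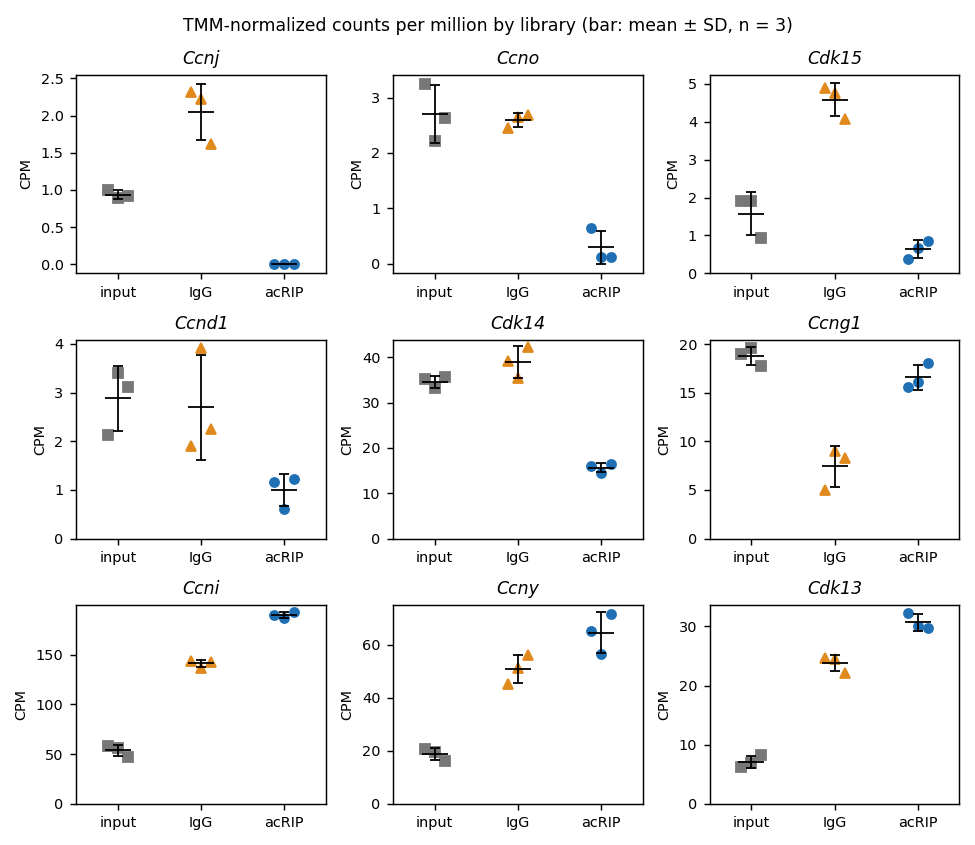
CPM after TMM scaling in each library for 9 genes that were called in at least 1 comparison, with horizontal bars for the mean and error bars for the SD of 3 libraries. Ccnj, Ccno, Cdk15, Ccnd1 and Cdk14 have their lowest values in acRIP, Ccng1 is lowest in IgG, and Ccni, Ccny and Cdk13 are lowest in input.

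Among the 4 kinases of the classical cell cycle, no gene was called against IgG, where 11.5% of all tested genes were higher and 20.9% lower. Cdk1, the kinase of the M-phase cyclins, gave -0.29 ± 0.06 against IgG and -0.06 ± 0.06 against input, and Cdk2 0.26 ± 0.08 and 0.12 ± 0.08. Cdk4, a partner of the D-type cyclins, was measured at 0.51 ± 0.09 against IgG and -0.15 ± 0.08 against input, and 19.7% of its exon bases overlap Tspan31 on the opposite strand. Cdk6, the other such partner, was the one kinase of the 4 higher in acRIP than in input, with 8.07, 8.5 and 7.41 CPM in input, 15.9, 16.9 and 13.8 in IgG and 22.8, 21.2 and 25.1 in acRIP. The 3 groups did not overlap, and the change was 1.52 ± 0.13 against input (adjusted p = 9.0e-13) and 0.57 ± 0.13 against IgG.

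The kinases of transcription and RNA processing held the largest gains over input. Cdk13, which phosphorylates RNA polymerase II during elongation, had 6.25, 6.86 and 8.24 CPM in input, 24.7, 24.5 and 22.2 in IgG and 32.3, 30.0 and 29.8 in acRIP. Its change was 2.11 ± 0.12 against input (adjusted p = 5.1e-18) and 0.37 ± 0.11 against IgG. Cdk9, the kinase of P-TEFb, had 4.88, 4.69 and 4.03 CPM in input, 17.6, 15.05 and 17.0 in IgG and 17.3, 16.9 and 17.7 in acRIP. The IgG and acRIP libraries of Cdk9 overlapped, with a change of 1.92 ± 0.15 against input (adjusted p = 3.7e-14) and 0.06 ± 0.14 against IgG (adjusted p = 0.72). Cdk12, which shares its cyclin with Cdk13, gave 0.77 ± 0.11 against input and -0.48 ± 0.11 against IgG.

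Cdk11b, a kinase linked to splicing, was lower in acRIP than in IgG by a margin close to the limit. It had 33.3, 30.4 and 28.9 CPM in input, 57.8, 55.1 and 54.9 in IgG and 30.5, 26.1 and 25.9 in acRIP, so that acRIP overlapped with input and lay below IgG. Its -1.02 ± 0.09 against IgG (adjusted p = 2.9e-12) was just under the 2-fold limit with upper quartile scaling (-0.975), with no filter (-0.996), in a fit of 6 libraries (-0.998) and without acRIP replicate 2 (-0.982) or 3 (-0.978), which ended the call. Cdk8 and Cdk19, the alternative Mediator kinases, gave 0.68 ± 0.13 and -0.03 ± 0.08 against IgG and -0.15 ± 0.12 and 0.61 ± 0.08 against input. Cdk7, the kinase of TFIIH, gave -0.10 ± 0.09 and -0.61 ± 0.08, and Cdk10 -0.64 ± 0.09 and 0.06 ± 0.09.

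Of the remaining 7 kinases, Cdk14 and Cdk15, which are paralogs, were lower in acRIP than in both other groups, where 17% of all tested genes were. Cdk14, activated by Ccny at the plasma membrane in Wnt signalling (chr5:4803391-5420312, minus strand), had 35.1, 33.2 and 35.6 CPM in input, 39.2, 35.4 and 42.4 in IgG and 16.0, 14.6 and 16.4 in acRIP. It was the best counted of the 5 genes that were called lower than both, with 249, 261 and 270 counts in acRIP. Its change was -1.32 ± 0.10 against IgG (adjusted p = 1.5e-13) and -1.14 ± 0.10 against input (adjusted p = 8.3e-13). Cdk15 (chr1:59256906-59352993, plus strand) had 61, 43 and 21 counts in input, 72, 90 and 76 in IgG and 6, 12 and 14 in acRIP, with changes of -2.83 ± 0.40 against IgG (adjusted p = 1.5e-07) and -1.30 ± 0.41 against input (adjusted p = 0.0051). In CPM its groups were ordered acRIP, input, IgG without overlap, the nearest values being 0.85 in acRIP and 0.92 in input.

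The other kinases gave small values. Cdk5, a kinase of neurons and other postmitotic cells, had 37.4, 37.0 and 32.3 CPM in acRIP, 23.7, 20.2 and 21.4 in IgG and 28.0, 28.3 and 28.6 in input. It was above both groups in all libraries, by 0.71 ± 0.10 against IgG (adjusted p = 1.3e-07) and 0.33 ± 0.10 against input. Cdk16, which is needed for spermatogenesis, gave 0.11 ± 0.06 and 0.01 ± 0.06, Cdk17 -0.07 ± 0.10 and -0.10 ± 0.10, Cdk18 -0.50 ± 0.19 and 0.67 ± 0.20, and Cdk20, a kinase of ciliary signalling, -0.24 ± 0.07 and -0.08 ± 0.07. For Cdk16 the 3 groups overlapped.

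The 5 genes that were called lower in acRIP than in both other groups ranked 30, 33, 38, 39 and 43 of 44 by input FPKM. Rank 30 is that of Cdk14, whose merged exons span 18877 bases and whose transcript has 4851. By counts Cdk14 was not low, with 1124, 749 and 812 in input, whereas the others had at most 104. The acRIP libraries also had the fewest genes with a count, as given above, and the part of this in the 5 calls was not tested. With a minimum of 10 counts in every library, 2 of the 5 (Ccnd1 and Cdk14) still entered the test and were called. When the edgeR test was made against a 2-fold change itself (glmTreat), Ccnj and Ccno remained lower than both groups, Ccnd1 lost both calls (adjusted p = 0.162 against IgG and 0.0861 against input), and Cdk14 and Cdk15 lost theirs against input (adjusted p = 0.0764 and 0.245). On the ratio of FPKM + 1, which shrinks changes at low FPKM, none of the 5 was called against both groups, and Ccnd1 came to -0.385 and -0.433.

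The IgG libraries were also compared with input, as the background of recovery without the anti-ac4C antibody. Of the 43 genes, 9 (20.9%) were higher in IgG than in input, where 13.4% of all tested genes were, and 1 (2.33%) was lower, where the share was 7.19%. Over the tested protein-coding genes these shares were 12.9% and 6.25%. The higher ones were Cdk9 (1.86 ± 0.15), Cdk13 (1.75 ± 0.12), Cdk15 (1.52 ± 0.35), Ccny (1.43 ± 0.10), Ccni (1.39 ± 0.06), Ccng2, Ccnd2 (1.30 ± 0.20), Cdk12 (1.25 ± 0.11) and Cdk18 (1.16 ± 0.19), and the lower one was Ccng1. At any fold and an adjusted p under 0.05, 20 were above (25.9% of all tested genes) and 10 below (26.1%), and the IgG and input libraries did not overlap for 34 of 43, where 58.9% of all tested genes did not. The median was 0.23 over the 43 genes and -0.01 over all tested genes, and 0.134 with upper quartile scaling, which shifted the median of all genes by -0.0977.

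The 6 genes that were called higher in acRIP than in input were above input in IgG as well. Cdk13, Cdk9, Ccni and Ccny were called in both, whereas Cdk6 (0.96 ± 0.14, and 1.04 without IgG replicate 3) and Ccnk (0.74 ± 0.05) stayed under 2-fold in IgG. The acRIP-over-input and IgG-over-input comparisons share the input libraries. The share of all tested genes that behaved alike was not computed, so this is not shown to be particular to the 6 genes.

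Paralogs were also compared within each library, as the log2 ratio of counts per kilobase, which does not depend on scaling between libraries. Of 15 pairs with counts, 12 had ratios that did not overlap between acRIP and IgG, 9 between acRIP and input and 13 between IgG and input. With 3 libraries against 3 the exact two-sided permutation test cannot go below p = 0.1, and over the 15 pairs the smallest adjusted p was 0.125, 0.167 and 0.115 in these comparisons, so no pair could pass. For single genes, the shares of all tested genes without overlap were those given above. No such share was computed for ratios of other gene pairs, so these counts are no result about paralogs. Pairs that have Ccnd2 or Cdk16 in common are also not separate from each other.

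The Ccna1 to Ccna2 ratio was 5.60 ± 0.08 (mean ± SD, n = 3 in each group) in input, 5.26 ± 0.14 in IgG and 6.75 ± 0.24 in acRIP, on a log2 scale. Thus the meiotic cyclin A exceeded the mitotic one most in the acRIP libraries, by 1.49 over IgG (exact p = 0.1). The Ccng1 to Ccng2 ratio was 2.81 ± 0.28 in input, 0.10 ± 0.58 in IgG and 2.30 ± 0.28 in acRIP, the largest difference between acRIP and IgG among the 15 pairs at 2.19 (exact p = 0.1). For Ccng1 and Ccng2 it was the IgG libraries that stood apart, as acRIP and input overlapped.

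Other ratios differed in their pattern over the groups. The Cdk4 to Cdk6 ratio was 4.69 ± 0.14 in input, 3.07 ± 0.09 in IgG and 3.01 ± 0.13 in acRIP, so that IgG and acRIP overlapped and both lay below input. The Cdk12 to Cdk13 ratio went from 0.97 ± 0.18 in input through 0.47 ± 0.17 in IgG to -0.38 ± 0.15 in acRIP without overlap, and the more abundant gene per length was Cdk12 in input and IgG and Cdk13 in acRIP. The Ccnt1 to Ccnt2 ratio overlapped in all 3 comparisons, at 0.97 ± 0.26, 0.85 ± 0.08 and 1.03 ± 0.14.

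**Figure D5:**
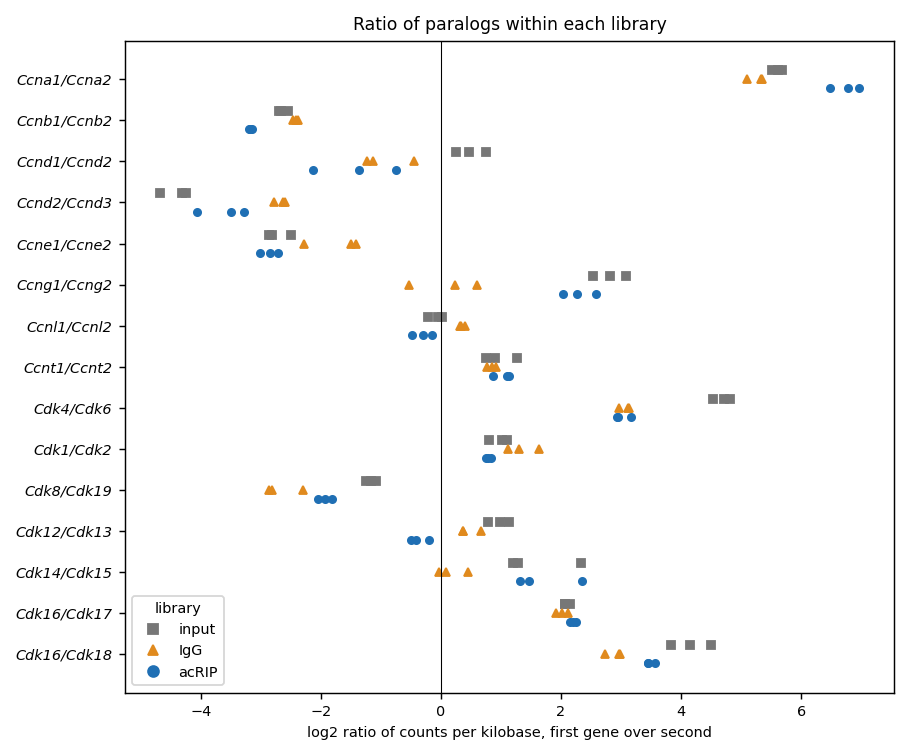
Log2 ratio of counts per kilobase of 2 paralogs (first over second gene named on the left) in each of the 9 libraries, with 0.5 added to each count. The acRIP libraries lie to the right of all others for Ccna1/Ccna2, the IgG libraries lie apart to the left for Ccng1/Ccng2, and IgG and acRIP coincide to the left of input for Cdk4/Cdk6.

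Transcript features were set beside the changes as a description over 43 genes that share the same libraries. Median cytidine content of the transcript was 23.7% for the group and 24.6% over 14996 tested protein-coding genes, and median transcript length 2973 and 2815 bases. The Spearman correlation of cytidine content with acRIP over IgG was 0.22 over the 43 genes and 0.05 over the protein-coding genes. Input FPKM had a correlation of 0.37 with acRIP over IgG and of -0.52 with IgG over input across the 43 genes, and of 0.10 and -0.20 across the protein-coding genes. Input counts enter both measures of the latter relation.

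Genes that act with the cyclins and Cdks were taken from 7 lists, whose counts stand beside the shares of all tested genes given above: 11.5% above IgG in acRIP and 20.9% below it, 17.7% and 22.8% against input, and 7.87% and 17% against both. Of 7 CDK inhibitors tested, 0 were called against IgG in either direction and 2 (Cdkn2c and Cdkn1b) were higher than in input, in IgG as in acRIP. Of 14 activators and CDK-binding subunits, 1 was higher (Cdc25c, 1.53 ± 0.12) and 3 lower in acRIP than in IgG, 3 higher and 2 lower than in input, and 0 higher and 2 lower than in both groups. These were Cdc25b, a phosphatase that activates Cdk1, and Ccnb1ip1, a ubiquitin ligase needed for meiotic crossing over. Cdc25b had 31, 24 and 14 counts in input, 18, 30 and 32 in IgG and 0 in each acRIP library, at least 8.34-fold lower than in IgG with a floor of 3 counts and 4.17-fold with 6. Ccnb1ip1 had 234, 268 and 296 counts in IgG and 72, 66 and 68 in acRIP, a log2 fold change of -1.89 ± 0.16 (adjusted p = 1.3e-12). Cdc25c was at 0.56 ± 0.11 for acRIP over input and at -0.97 ± 0.12 for IgG over input.

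None of 9 Cdk-inactivating and mitotic kinases was called against IgG (median log2 fold change -0.04), and 1 was higher than in input, Wee1, which inhibits Cdk1 (2.33 ± 0.10). In IgG, Wee1 was also called higher than in input, by 1.77 ± 0.10. Of 18 pocket proteins and E2F factors, 0 were higher and 4 lower than in IgG, and 6 higher and 1 lower than in input. The 1 lower than in both groups was the repressor E2f8, with 104, 137 and 150 counts in IgG, 96, 80 and 74 in input and 8, 2 and 2 in acRIP (-4.91 ± 0.39 against IgG, adjusted p = 3.7e-13). Of 20 subunits of cyclin-degrading ubiquitin ligases and their regulators, 1 was higher and 1 lower than in IgG, and 2 higher and 3 lower than in input. The 1 lower than in both was Fbxo5, an inhibitor of the anaphase-promoting complex (-2.20 ± 0.44 against IgG, adjusted p = 4.3e-05). Of 17 partners of the transcriptional Cdks, 1 was higher and 1 lower than in IgG, and 7 higher and 1 lower than in input. The 1 higher than in both was Aff1, a scaffold of the super elongation complex, with 96, 32 and 62 counts in input, 64, 78 and 114 in IgG and 118, 182 and 192 in acRIP. Its change was 1.01 ± 0.24 against IgG (adjusted p = 0.00042) and 2.03 ± 0.25 against input. The change against IgG was barely over the 2-fold limit, and this call was not examined under the alternatives.

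Of 11 related kinases and cyclin-box genes outside the naming rule, 0 were higher and 2 lower than in IgG, 1 higher and 5 lower than in input, and 2 lower than in both groups. Ccnjl, the paralog of Ccnj, had 20, 42 and 36 counts in IgG, 21, 28 and 9 in input and 4, 2 and 7 in acRIP, with -2.79 ± 0.63 against IgG (adjusted p = 0.00023). Ick, a kinase of cilia, gave -1.99 ± 0.26 against IgG (adjusted p = 4.3e-08) and -3.08 ± 0.25 against input. Over the 7 lists the median log2 fold change against IgG ranged from -0.26 to 0.05, beside -0.09 over all tested genes.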

How the data were processed

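Poly(A) RNA of mouse testis was sequenced in 3 input, 3 IgG and 3 acRIP libraries, grouped by their titles. By the methods and the submitters' processing notes, reads were trimmed (Trim Galore 0.6.7), mapped to mm10 (STAR 2.7.10a) and counted when unique (featureCounts 2.0.2), and the authors deposited raw counts per gene. Annotation release, strand setting and counting of mates are not given in the sources used here, and between 81.9% and 84.3% of counts from 1 to 20 were even, so fewer fragments lie behind low values. Names and gene types came from GENCODE vM21, in which every member has the coordinates of the table.

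Counts were tested with edgeR 4.0.16 in R 4.3.3 (filterByExpr, TMM, robust quasi-likelihood fit of all 9 libraries), with Benjamini-Hochberg adjustment over all genes, and calls were made at an adjusted p under 0.05 with more than a 2-fold difference. Alternatives were DESeq2 1.42.0, other scalings and filters, fits of only 6 libraries, glmTreat at 2-fold, limma 3.58.1 on FPKM + 1, a replicate block, another pseudocount in the paralog ratios and each library left out. Halved counts and sums with pseudogenes were added after seeing the data. The script was tested on simulated data. All members are described, and from each list up to 3 genes per direction with the largest change against IgG among those called against both groups. The 2 CDK inhibitors and Wee1, called against input, and Cdc25c, called against IgG, were named after their values were seen. The members and lists were chosen with earlier results of these data known. Python 3.11.15, scipy 1.17.1 and Biopython 1.88 were used for ratios, permutation tests and alignments. Unused columns of sample values numbered 0.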

Additional observations from a re-analysis of the deposited data

How the results depend on the processing

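Under DESeq2, RLE scaling, no filter, fits of the 6 libraries compared, halved counts and the replicate block, every count of called genes stayed within 1.5 times its value, and no called gene changed direction under any alternative run. The labels do not say whether equal replicate numbers pair the libraries. Deviations from the group means correlated by -0.00856 to 0.0583 between libraries of the same number over 15136 genes. Between libraries of different number the range was -0.0719 to 0.0596. No shared deviation was seen, which cannot show whether libraries of the same number came from the same RNA. With the replicate block 8 genes were lower in acRIP than in IgG, 5 lower than in both groups and 0 higher than in both, as without it. The median for IgG over input was 0.134 with upper quartile scaling. With at least 10 counts in every library, 5 genes were lower in acRIP than in IgG, 2 lower than in input and 2 lower than in both, and the median for acRIP over input was 0.0385, since fewer genes entered the test. Tested against a 2-fold change (glmTreat), acRIP had 0 genes above IgG and 4 below it, 2 lower than in input, 2 lower than in both, 5 higher and 0 lower in IgG than in input. The ratio of FPKM + 1, which shrinks changes of genes at low FPKM, gave 0 genes above IgG in acRIP and 1 below it, 0 lower than in input, 0 lower than in both and 3 higher in IgG than in input. With 1 library left out, genes higher in acRIP than in IgG numbered 0 to 1 and genes lower in IgG than in input 1 to 2, the extremes being reached without IgG replicate 1, where Ccng1 left and Cdk8 (-1.03) joined the calls. Genes lower in acRIP than in IgG ranged from 6 (without acRIP replicate 2) to 9 (without acRIP replicate 1). Genes lower than in both groups numbered 5 to 6. Paralog pairs without overlap numbered 12 to 14 between acRIP and IgG, 9 to 12 between acRIP and input and 13 to 14 between IgG and input with 1 library left out. At low counts only large differences were detectable.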
